A study of Sus scrofa with 6 samples.

Results

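The T cell receptor signalling proteins described here are 8 listed genes, LCK, ZAP70, LAT, LCP2, FYN, PRKCQ, PTPRC and CD247, that carry the signal from the bound receptor into the T cell. Members were the rows of the deposited expression table whose gene symbol equalled a listed name. There were 7 such rows of 11564 in all, because the symbol PTPRC was on 0 rows and was dropped. All 7 passed the filter on low values, which kept the 10735 genes that reached 1 FPKM in 3 or more libraries. FPKM scales fragment counts by the length of the transcript and by the size of the library. Levels can thus be compared between genes as far as the gene models are complete, which was not tested. RNA had been taken from the peripheral blood mononuclear cells (PBMCs, the lymphocytes and monocytes of blood) of Yorkshire pigs aged 6 months. There were 6 libraries from different animals, 3 labelled WT and 3 labelled Leptin-overexpressing. In the paper's results, the transgene of the second group held the pig leptin coding sequence behind a leptin promoter. Its vector methods and protocol name no promoter, so the promoter is not settled here. Pigs of this group were cloned by nuclear transfer from transfected fetal fibroblasts, while the control pigs carried no transgene. The paper's protocol describes fibroblasts of a male Yorkshire fetus, while its methods name embryos. The number of donor cell clones is not given in the sources used here. Whether the control pigs were also cloned is not stated in the paper, so transgene, cloning and donor genome cannot be told apart.

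The depth of each library is unknown, since FPKM values hold no read counts, and precision rests on 3 libraries per label. Summed over genes, FPKM came to 444888 to 449653 per WT library and 467276 to 503140 per Leptin-overexpressing library. LEP, the transgene's product, was at 50.0 FPKM, listed at 0 and at 0.118 FPKM in WT replicates 1 to 3, and was listed at 0, at 18.3 and at 39.3 FPKM in Leptin-overexpressing replicates 1 to 3. Both replicate 1 libraries go against their labels and the other 4 do not. The paper reports that semiquantitative PCR told leptin and control pigs apart. It also reports serum leptin by ELISA and expression of the transgenic leptin. Its text does not link those pigs to single libraries. Whether the replicate 1 samples were exchanged was not tested, and an exchange would alter the directions given here. Every direction below is that of the labels, and the members' log2 fold changes without both replicate 1 libraries are also given. All 14 T cell markers were above 0 in each library, which does not test how pure the PBMCs were. Neutrophil markers, 5 of 8 found, summed to 3459 FPKM in WT replicate 1 against 359 to 1043 FPKM in the other libraries. Most of the WT replicate 1 sum came from S100A12 (1702 FPKM), S100A9 (1031 FPKM) and S100A8 (699 FPKM). LTF was also highest there, at 25.6 FPKM, whereas ELANE was at 0.651 FPKM there and highest in Leptin-overexpressing replicate 1 (1.05 FPKM). Neutrophil content was not tested.

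The T cell receptor has no enzyme of its own. When it is bound, the Src family kinases LCK and FYN phosphorylate the tails of the CD3 chains and of the zeta chain, which CD247 encodes. ZAP70 docks on these tails and phosphorylates the scaffold LAT, on which the adaptor LCP2 (SLP-76) and further proteins assemble. From there, calcium, Ras and PRKCQ (protein kinase C theta) carry the signal to transcription factors. PTPRC (CD45) is the surface phosphatase that removes the inhibitory phosphate of LCK. Several of these genes belong mainly to T cells and NK cells, whereas LCP2 is also used by myeloid cells and platelets, and PTPRC by nearly all leukocytes. In RNA from mixed blood cells, fewer cells of a type and less RNA per cell cannot be told apart.

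Whether RNA of these proteins differs with leptin overexpression was asked by comparing the labels in limma on log2(FPKM + 1). The T cell receptor signalling genes were at similar levels under both labels, with log2 fold changes (Leptin-overexpressing minus WT) from -0.13 for LCP2 to 0.18 for LAT. With Benjamini-Hochberg adjustment, 0 of the 7 members had an adjusted p under 0.05, against 1 of the 10735 genes tested (0.00932%). At an unadjusted p under 0.05 the count was again 0 of 7, against 341 genes (3.18%). When each gene's own variance was used without moderation, the count was 1 of 7 (LCP2, adjusted p = 0.988), against 345 genes (3.21%). The fold change was positive for 5 members and negative for 2, and their median of 0.050 was beside a median of 0.059 over all genes tested, of which 6772 were positive and 3963 negative. With median-of-ratios scaling between libraries, LAT, CD247 and FYN (0.0024) were positive and LCK, ZAP70, PRKCQ (-0.088) and LCP2 negative, and the members' median was -0.016 beside 0.0022 over all genes tested. The groups overlapped for 6 members and were apart for LCP2 alone, against 7.63% of all genes tested whose groups were apart. Without both replicate 1 libraries the log2 fold changes were -0.11 for LCP2, -0.10 for PRKCQ, -0.089 for ZAP70, -0.065 for FYN, 0.017 for LCK, 0.082 for CD247 and 0.18 for LAT.

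**Figure D1:**
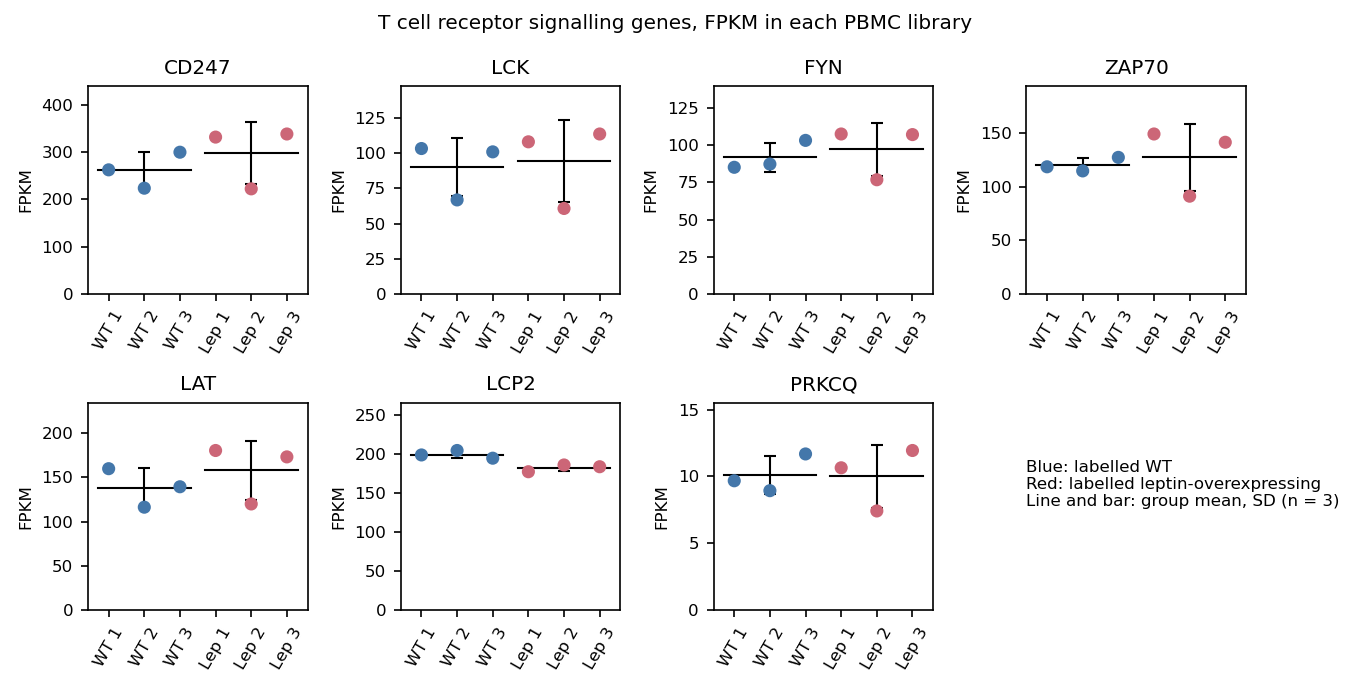
FPKM of the 7 members in each PBMC library (blue, labelled WT; red, labelled Leptin-overexpressing), each panel with its own axis from 0, and with the mean and SD of each label (n = 3). The library Leptin-overexpressing replicate 2 is the lowest for 5 of the 7 members, and LCP2 is the only member whose groups are apart.

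**Figure D2:**
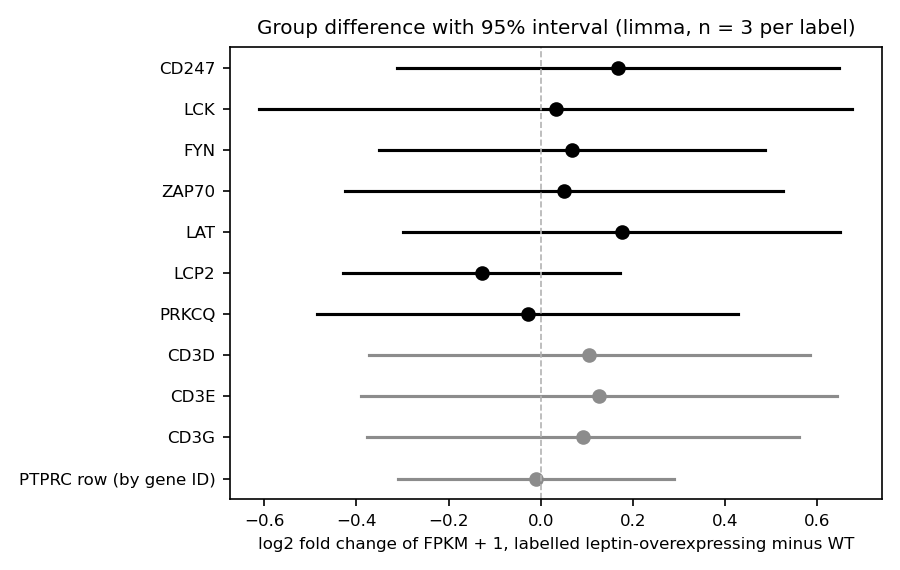
Log2 fold change of FPKM + 1 (horizontal axis) with its 95% interval from limma for the 7 members in black, and for the 3 CD3 genes and the row matched to PTPRC by gene ID in grey. Every interval spans 0, and the widest among the members is that of LCK, from -0.61 to 0.68.

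CD247 (ENSSSCG00000006309, chromosome 4 from 91170081 to 91259490 in the table's coordinates, for which no genome build is named) encodes the zeta chain and had the highest level of the 7 members. It was at 263, 224 and 300.1 FPKM in WT replicates 1 to 3 and at 332, 223 and 339 FPKM in Leptin-overexpressing replicates 1 to 3. A pair of libraries of the second group lay above every library of the first, and the remaining one lay below them all. The means were 262 ± 38.1 FPKM and 298 ± 65.2 FPKM (SD, n = 3 each), and the log2 fold change was 0.17 (SE 0.21, adjusted p = 0.993 in limma, exact two-sided permutation p = 0.6). Its 95% interval allowed a change between 0.806-fold and 1.57-fold.

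LCK (ENSSSCG00000003608, chromosome 6 from 82843254 to 82852669), the Src family kinase bound to CD4 and CD8, was the member that varied most between libraries. It was at 103, 66.9 and 101.05 FPKM in the WT libraries and at 108, 60.8 and 114 FPKM in the Leptin-overexpressing libraries. Replicate 2 of each label was low, at 66.9 and 60.8 FPKM, and the other 4 libraries were within 101.05 to 114 FPKM. The highest library was 1.87 times the lowest, while the group means differed by a ratio of 1.04. The log2 fold change was 0.033 (SE 0.28, adjusted p = 0.998 in limma, exact permutation p = 0.8), and the interval of the change ran from 0.655-fold to 1.60-fold. With median-of-ratios scaling between libraries the log2 fold change was -0.033, and that scaling lowered the median of all genes tested from 0.059 to 0.0022.

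FYN (ENSSSCG00000004421, chromosome 1 from 87145367 to 87423979), the second Src family kinase of the pathway and one that many tissues use, was at 85.1, 87.2 and 103 FPKM in the WT libraries. In the Leptin-overexpressing libraries it was at 107, 76.7 and 107 FPKM. The group means of 91.8 ± 9.87 and 97.1 ± 17.6 FPKM (SD, n = 3 each) differed by less than either SD. The log2 fold change was 0.068 (SE 0.18, adjusted p = 0.993 in limma), and without both replicate 1 libraries it was -0.065. LCK and FYN could be compared within a library, and the ratio of LCK to FYN was between 0.767 and 1.2, with LCK the higher in 3 of the 6 libraries. That ratio was 0.767 and 0.792 in the replicate 2 libraries, where LCK fell short of FYN the most, and the labels overlapped.

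ZAP70 (ENSSSCG00000008193, chromosome 3 from 59135457 to 59264742), the kinase that docks on the phosphorylated zeta and CD3 tails, was at 119, 115 and 128 FPKM in the WT libraries. In the Leptin-overexpressing libraries it was at 149, 91.4 and 142 FPKM. The WT values lay within a ratio of 1.11 of each other and inside the span of the Leptin-overexpressing values, whose highest was 1.64 times the lowest. The log2 fold change was 0.050 (SE 0.21, adjusted p = 0.993 in limma, exact permutation p = 1.0). It was -0.016 with median-of-ratios scaling and -0.089 without both replicate 1 libraries. The ratio of ZAP70 to CD247, its docking chain, stayed between 0.411 and 0.513 over the 6 libraries, a narrower span than that of either gene's level.

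LAT (ENSSSCG00000007811, chromosome 3 from 18825559 to 18829970), the membrane scaffold that ZAP70 phosphorylates, was at 160 FPKM, 116 FPKM and 139 FPKM in the WT libraries and at 180 FPKM, 120.1 FPKM and 173 FPKM in the Leptin-overexpressing libraries. Replicate 2 was the lowest of its label in both groups. The means were 139 ± 21.7 and 158 ± 32.9 FPKM (SD, n = 3 each), and the log2 fold change of 0.18 was the most positive among the members (SE 0.21, adjusted p = 0.993 in limma, exact permutation p = 0.5). LAT and CD247 kept a positive fold change under each of the 13 alternatives to the processing, but in none of them did either reach an adjusted p under 0.05.

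LCP2 (ENSSSCG00000017006, chromosome 16 from 58039299 to 58082197), the adaptor that joins LAT to VAV1, went the other way and varied least among the members. It was at 199 FPKM, 204 FPKM and 195 FPKM in the WT libraries and at 177 FPKM, 186 FPKM and 184 FPKM in the Leptin-overexpressing libraries. Every Leptin-overexpressing library was below every WT library, which 2.63% of all genes tested showed in this direction. The means were 199 ± 4.95 and 182 ± 4.48 FPKM (SD, n = 3 each), a ratio of 0.915. The exact permutation p was 0.1, the smallest that 3 libraries against 3 can give. In limma the log2 fold change was -0.13 (SE 0.13, adjusted p = 0.993). After median-of-ratios scaling the values were 220, 209 and 182 against 162, 193 and 178, so the groups overlapped, with a log2 fold change of -0.19.

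PRKCQ (ENSSSCG00000011131, chromosome 10 from 70509345 to 70658589), the protein kinase C isoform of T cells that leads to NF-kB, had by far the lowest level of the 7. It was at 9.68, 8.94 and 11.7 FPKM in the WT libraries and at 10.7, 7.43 and 11.9 FPKM in the Leptin-overexpressing libraries. The values of both labels were intermingled, and the log2 fold change was -0.028 (SE 0.20, adjusted p = 0.997 in limma, exact permutation p = 1.0). Its interval allowed a change between 0.715-fold and 1.35-fold.

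PTPRC was not among the symbols, but 1 row without a symbol (ENSSSCG00000010908, chromosome 10 from 26308758 to 26332284) is named PTPRC by gene ID in the reference name table, and it is given here outside the rule for members. It was at 436, 453 and 433 FPKM in the WT libraries and at 448, 432 and 431 FPKM in the Leptin-overexpressing libraries. The highest library was 1.05 times the lowest, and the log2 fold change was -0.011 (SE 0.13, adjusted p = 0.998 in limma). This row was higher than each of the 7 members in every library and steadier than each of them.

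The levels, averaged over the 6 libraries, were in the order CD247 (280.0 FPKM), LCP2 (191 FPKM), LAT (148 FPKM), ZAP70 (124 FPKM), FYN (94.4 FPKM), LCK (92.3 FPKM) and PRKCQ (10.1 FPKM). Among the 10735 genes tested, CD247 ranked 255 from the top, the next 5 members ranked between 379 and 769, and PRKCQ ranked 5071. Neighbours in this order had separate ranges for CD247 against LCP2 and for LCK against PRKCQ, and the other neighbours overlapped. Within single libraries, LAT was above ZAP70 and ZAP70 above FYN in 6 of 6, LCP2 was above LAT in 5 of 6, and FYN was above LCK in 3 of 6. The order of FYN and LCK is therefore not settled by these libraries.

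Most members had their low and high values in the same libraries, an order that the labels did not follow. Leptin-overexpressing replicate 2 was the lowest library for 5 of the 7 members and among the lowest pair for 6, and WT replicate 2 was among the lowest pair for 5. Leptin-overexpressing replicates 3 and 1 were among the highest pair for 6 and 5 members. LCP2 was the exception, with its highest value in WT replicate 2 and its lowest in Leptin-overexpressing replicate 1. After median-of-ratios scaling, the lowest pair was WT replicate 2 and Leptin-overexpressing replicate 2 for the 6 members other than LCP2, against 5 as deposited. The SD of log2(FPKM + 1) over the 6 libraries was above the median of all genes tested (0.22) for 5 members, was 0.38 for LCK, and was 0.077 for LCP2.

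The CD3 genes, which encode the receptor's other signalling chains and mark T cells, followed the same pattern. CD3E was at 299, 249 and 278 FPKM in the WT libraries and at 340.1, 213 and 372 FPKM in the Leptin-overexpressing libraries. CD3D lay between 70.8 and 115 FPKM and CD3G between 86.5 and 133 FPKM over the 6 libraries, and both were lowest in Leptin-overexpressing replicate 2 and highest in Leptin-overexpressing replicate 3. Of the 15 pairs of libraries, CD247 was ordered as the mean of CD3D, CD3E and CD3G in 15, LCK, ZAP70 and PRKCQ in 14 each, FYN in 13, LAT in 12 and LCP2 in 4, and the PTPRC row in 6. The median gene tested was ordered so in 9 pairs, and 0.466% of genes tested reached 15, 2.17% reached 14 or more, 6.86% reached 13 or more and 16.2% reached 12 or more. These counts describe the same 6 libraries for every gene, and genes are not independent replicates.

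T cell markers as a whole moved with the members. The list had 14 markers, all of them found, and its summed level was between 855 and 1161 FPKM in the WT libraries and between 758 and 1335 FPKM in the Leptin-overexpressing libraries, with the low ends in the replicate 2 libraries. NK cell markers, 8 of 10 found, summed to between 246 and 628 FPKM and to between 370.0 and 567 FPKM, with WT replicate 2 and Leptin-overexpressing replicate 2 again the lowest of their labels, and KLRD1 was listed at 0 in 4 libraries. Monocyte markers, 7 of 8 found, summed to between 389 and 887 FPKM and to between 546 and 915 FPKM, with Leptin-overexpressing replicate 2 the highest. B cell markers, 8 of 9 found, summed to between 412 and 762 FPKM and to between 575 and 733 FPKM. Platelet markers, 5 of 6 found, summed to between 183 and 436 FPKM and to between 125 and 394 FPKM. Red cell markers, 2 of 5 found, summed to between 25.1 and 217 FPKM and to between 21.8 and 102 FPKM. WT replicate 1 was the highest library for both. Every one of these sums overlapped between the labels, and 0 markers had an unadjusted p under 0.05 in limma. The part of cell makeup in the members' levels was not tested.

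**Figure D3:**
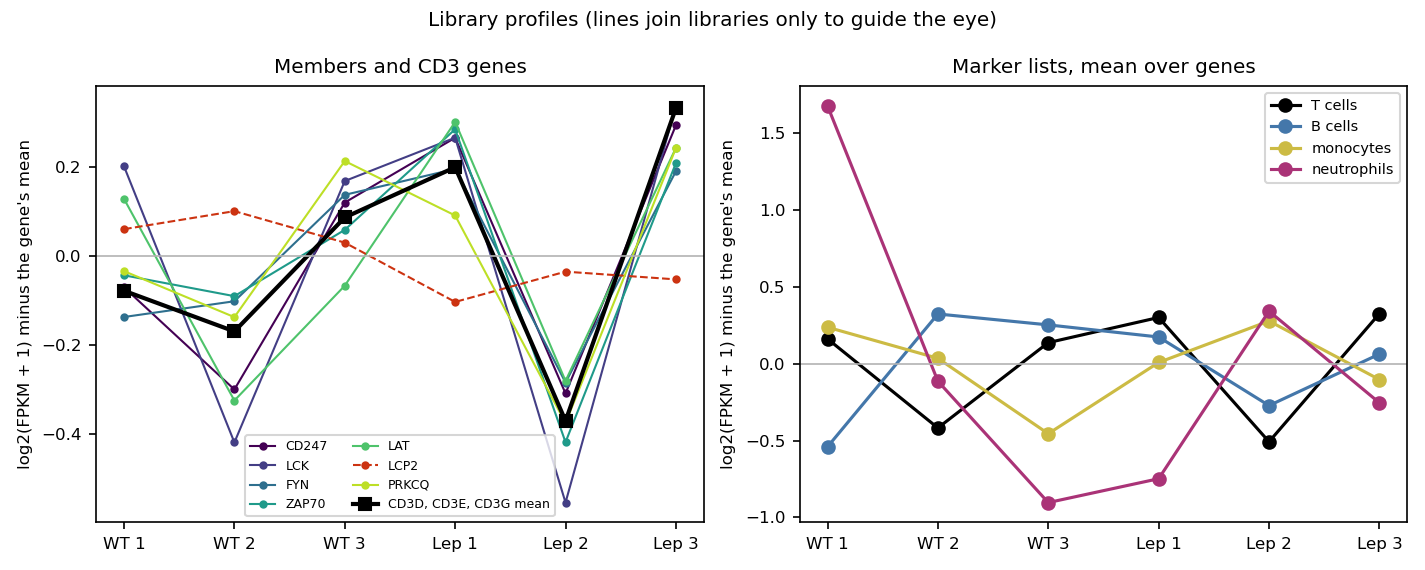
Log2(FPKM + 1) minus the gene's mean in each library, for the members and the mean of the 3 CD3 genes (left) and for the mean of 4 marker lists (right), with lines that only guide the eye. The members other than LCP2 dip with the CD3 genes and the T cell markers in Leptin-overexpressing replicate 2, where the CD3 mean lies at -0.37, while the dashed LCP2 line stays near 0.

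Members were also expressed relative to the CD3 genes, by subtracting the mean log2(FPKM + 1) of CD3D, CD3E and CD3G in the same library. The SD over the 6 libraries then fell for 6 of the 7 members, against 26.0% of all genes tested. It came down to 0.278 of its former size for CD247, 0.325 for ZAP70, 0.377 for PRKCQ, 0.433 for FYN, 0.502 for LCK and 0.573 for LAT. For LCP2 it grew to 3.90 times its former size. On this scale the difference between the labels was 0.060 for CD247, 0.068 for LAT, -0.040 for FYN, -0.057 for ZAP70, -0.075 for LCK and -0.24 for LCP2, with overlapping groups for each of them and exact permutation p values between 0.4 and 0.8. The difference for LCP2 turned on single libraries, being -0.46 without Leptin-overexpressing replicate 2 (exact permutation p = 0.1, the smallest that remains possible), -0.10 without Leptin-overexpressing replicate 3 and -0.13 without both replicate 1 libraries. That for LAT was 0.0075 without WT replicate 2, 0.0085 without WT replicate 3, 0.19 without WT replicate 1 and 0.15 without both replicate 1 libraries. That for ZAP70 was -0.010 without Leptin-overexpressing replicate 3 and -0.11 without Leptin-overexpressing replicate 1. Without both replicate 1 libraries, ZAP70 was at -0.11, FYN at -0.087 and LCK at -0.0054. LCK turned to 0.047 without WT replicate 1, and FYN to 0.021 without Leptin-overexpressing replicate 3. Without WT replicate 2, LCK was at -0.22 and CD247 at 0.0092.

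PRKCQ was the 1 member whose groups did not overlap on the CD3 scale, but it did not pass after adjustment. Its level minus the CD3 mean, on the log2 scale, was -3.66, -3.67 and -3.58 in the WT libraries and -3.81, -3.71 and -3.796 in the Leptin-overexpressing libraries. The groups did not overlap for this 1 of the 7 members, against 5.56% of all genes tested in either direction, 5.02% with the Leptin-overexpressing libraries lower and 0.54% with them higher, and the difference was -0.14. The exact permutation p of 0.1 is the smallest the design allows, and adjusted over the 7 members compared it was 0.7. With 1 library left out the difference ran from -0.17 to -0.11. The exact permutation p was then 0.2 without WT replicate 1, 2 or 3, and 0.1 without each Leptin-overexpressing library. The difference was -0.13 without both replicate 1 libraries. The CD3 mean itself differed by 0.11 between the labels (exact permutation p = 0.7) and PRKCQ itself by -0.028, and the difference on the CD3 scale is the second of these minus the first.

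**Figure D4:**
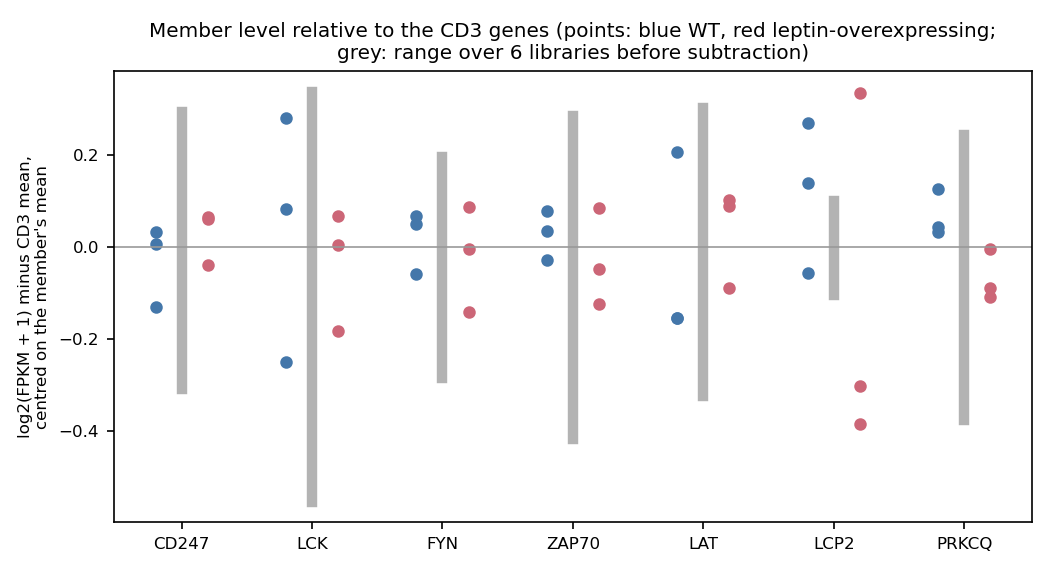
Log2(FPKM + 1) of each member minus the CD3 mean of the same library, centred on the member's own mean (points: blue WT, red Leptin-overexpressing, 3 libraries each), beside the range of the member before subtraction (grey bars). The spread narrows for every member but LCP2, and the points of PRKCQ are the only ones that separate by label, with a difference of -0.14.

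The other genes of the pathway were read from a list of 77 symbols in 8 roles, of which 63 were found and 63 rows were tested. Of these rows, 35 had a positive and 28 a negative log2 fold change, with a median of 0.029, and with median-of-ratios scaling 26 were positive and 37 negative. At an unadjusted p under 0.05 in limma, 0 were higher and 1 was lower, beside 3.18% of all genes tested, and at an adjusted p under 0.05 there were 0 in either direction. Of all genes tested, 63.1% were positive as deposited and 50.5% with that scaling. The receptor and coreceptor genes were positive in 8 of the 8 tested (median 0.12), although each missed the test, and with median-of-ratios scaling in 6 of 8 (median 0.050). Of them, CD8A (0.013) and ICOS (0.020) were under the median of 0.059 over all genes tested. CTLA4, which was too low to be tested in limma, had means of 1.16 and 0.798 FPKM and a log2 fold change of -0.27. Its groups overlapped (exact two-sided permutation p = 0.4). The kinase rows, 5 for 4 genes because SYK was on 2 rows, were positive in 4 of 5 (median 0.11), the adaptors in 9 of 13 (median 0.048), the calcium and NFAT genes in 6 of 12 and the diacylglycerol and Ras genes in 3 of 8. With median-of-ratios scaling these counts were 3 of 5 for the kinase rows, 6 of 13 for the adaptors (median -0.017), 4 of 12 for the calcium and NFAT genes and 3 of 8 for the diacylglycerol and Ras genes. Phosphatases and ubiquitin ligases were negative in 7 of 10 (median -0.12), and the actin regulators in 3 of 3 (median -0.14). With median-of-ratios scaling they were negative in 8 of 10 (median -0.18) and in 3 of 3 (median -0.21).

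The gene that passed the unadjusted test was CBL (ENSSSCG00000015115, chromosome 9 from 51452066 to 51540892), a ubiquitin ligase that marks activated receptor kinases for degradation. It was at 15.3, 11.7 and 10.2 FPKM in the WT libraries and at 7.60, 7.80 and 10.1 FPKM in the Leptin-overexpressing libraries. The groups were apart by the gap between 10.2 and 10.1 FPKM alone, and 2.63% of all genes tested were apart in this direction. The means were 12.4 ± 2.61 and 8.50 ± 1.39 FPKM (SD, n = 3 each), with a log2 fold change of -0.49 (SE 0.19, adjusted p = 0.993 in limma). The count of 1 became 0 without WT replicate 1, WT replicate 2 or Leptin-overexpressing replicate 1, rose to 5 without WT replicate 3, and was 2 without Leptin-overexpressing replicate 2 or 3.

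The most abundant gene of each of these 7 roles did not pass the test. Among receptor genes it was CD3E, given above. CSK, the kinase that holds LCK inactive, was between 129.9 and 167 FPKM with a log2 fold change of 0.11, and GRB2, an adaptor on LAT, was between 253 and 332 FPKM with 0.16. PTPN6 (SHP-1), a phosphatase that dampens the signal, was between 401 and 523 FPKM with 0.11. VAV1, the exchange factor bound by LCP2, was between 111 and 160 FPKM with -0.14, while STIM1, the calcium sensor of the endoplasmic reticulum, was between 28.6 and 41.3 FPKM with 0.15. DGKZ, which removes diacylglycerol, was between 62.1 and 90.2 FPKM with 0.10. The adjusted p in limma was 0.993 for each of them, and their groups overlapped.

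**Figure D5:**
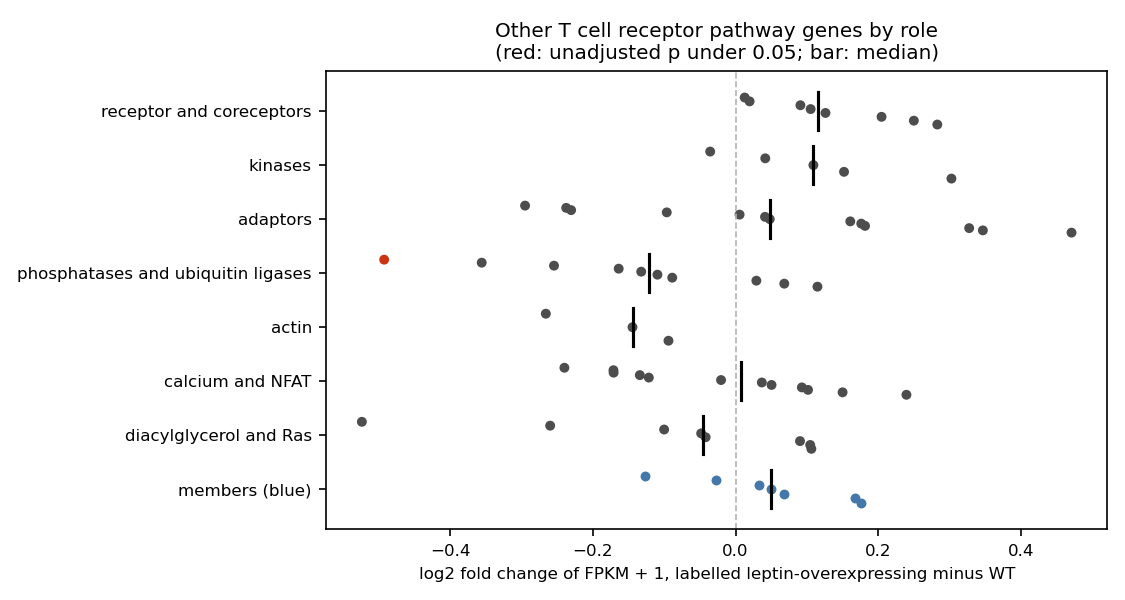
Log2 fold change of FPKM + 1 (Leptin-overexpressing minus WT) for 59 rows of further pathway genes in 7 roles and for the 7 members (blue), with a bar at each role's median. CBL at -0.49 is the one gene in red (unadjusted p under 0.05), and the 8 receptor and coreceptor genes that were tested lie above 0 without passing the test, 6 of them also with median-of-ratios scaling.

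The table's own KEGG annotation for T cell receptor signalling was carried by 56 rows, 54 of them tested, and by 6 of the 7 members, PRKCQ being the one without it. Its median log2 fold change was 0.059, with 33 positive and 21 negative. At an unadjusted p under 0.05 in limma there were 2 higher, TNF (1.29) and NFKBIA (0.72), and 2 lower, CBL (-0.49) and NFAT5 (-0.45), beside 3.18% of all genes tested, and at an adjusted p under 0.05 there were 0. The groups were apart for 8 of the 54 rows, LCP2 among them, beside 7.63% of all genes tested. TNF is a cytokine and NFKBIA an inhibitor of NF-kB, both read out at the end of the pathway and in other leukocytes.

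The genes most like the members in pattern were found by the root mean square difference from the members' mean profile in centred log2(FPKM + 1) over 6 libraries, among 7102 other genes with a symbol. They were ST5 (0.027), FAM102A (0.034), ZFP1 (0.035), SEPT6 (0.038) and CHERP (0.042). Among the members, the difference from their own mean profile was 0.072 for PRKCQ, 0.073 for ZAP70, 0.075 for FYN, 0.077 for CD247, 0.11 for LAT, 0.17 for LCK and 0.23 for LCP2. Each member is part of that mean, which shortens its own distance, and LCK still ranked only 2329 and LCP2 only 5100 among all genes tested. ST5 was low in every library, between 0.940 and 1.78 FPKM, so its likeness rests on small values.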

How the data were processed

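PBMC RNA-seq of 6 pigs was analysed, 3 per label, with groups and replicate numbers taken from the sample labels. The authors deposited 1 FPKM value per gene and library. The paper's methods name paired-end reads of 101 bp, Bowtie, the Ensembl version 75 transcriptome and RSEM, while the submitters' processing notes list FastQC, STAR 2.5, Cuffnorm and DESeq 1.22.1 without their roles, so the tool behind the values is not settled. The labels describe a strand-specific kit. The table's fold changes and p-values are the authors' own and were not used. Of 4000 rows without a symbol, 1504 were named by gene ID, 12 of them in the pathway list. Of the list's 8 roles, 1 is not reported here on its own.

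Groups were compared with limma 3.58.1 in R 4.3.3 (two-sided, genotype only) on log2(FPKM + 1), which understates changes of low genes, over the 10735 genes that reached 1 FPKM in 3 or more libraries, with Benjamini-Hochberg adjustment over all of them. Single values were compared by exact two-sided permutation test in Python 3.11.15. In a test on simulated data, 200 of 10735 genes were shifted by 2 on the log2 scale, and 191 of them were called beside 14 false calls. The shift was larger than that of any member, and noise was drawn for each gene on its own. The test therefore does not show whether differences of the members' size would be called. The members and lists were chosen with earlier results of these data known. Genes named were the members, LEP, the CD3 genes, pathway genes with an unadjusted p under 0.05, the most abundant gene of each role and the 5 nearest in pattern. The 4 KEGG genes, CD8A, ICOS, CTLA4, KLRD1, SYK, S100A8, S100A9, S100A12, LTF, ELANE and the row named PTPRC were chosen after seeing the data. Alternatives covered the pseudocount, filter, scaling, variance, replicate block and libraries left out.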

Additional observations from a re-analysis of the deposited data

How the results depend on the processing

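With 3 libraries per label and no read counts, differences of the size seen here could not be told from the spread between pigs, and the intervals allow changes of the members well beyond those measured. LAT, CD247 and LCP2 kept their direction under all 13 alternatives, but with 1 library left out LAT (0.18) ran from 0.057 to 0.36, CD247 (0.17) from 0.059 to 0.36 and LCP2 (-0.13) from -0.14 to -0.11. The count of genes past an adjusted p of 0.05 in limma (1) was 0 when genes had to reach 1 FPKM in all 6 libraries, 0 with each gene's own variance, 0 without both replicate 1 libraries and between 0 and 3 with 1 library left out. The count at an unadjusted p (341) was between 247 and 846 with 1 library left out, the 846 without WT replicate 3. Members past an unadjusted p (0) became 1, LCP2, with own variance. Pathway genes past it (1) became 0 with own variance, 0 without both replicate 1 libraries, 4 with the KEGG rows in place of the list (an alternative added after seeing the data) and between 0 and 5 with 1 library left out. The members' median (0.050) was -0.016 with median-of-ratios scaling, -0.065 without both replicate 1 libraries and between -0.080 and 0.27 with 1 library left out, the 0.27 without Leptin-overexpressing replicate 2.

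Directions turned for LCK (-0.033) and ZAP70 (-0.016) with median-of-ratios scaling, which moved the median of all genes from 0.059 to 0.0022, and for ZAP70 (-0.089) and FYN (-0.065) without both replicate 1 libraries. With 1 library left out, the log2 fold change ran from -0.17 to 0.32 for LCK, from -0.080 to 0.27 for ZAP70, from -0.013 to 0.23 for FYN and from -0.16 to 0.15 for PRKCQ, and relative to the CD3 genes from -0.22 to 0.047 for LCK, from -0.093 to 0.021 for FYN, from -0.46 to -0.10 for LCP2, from -0.11 to -0.010 for ZAP70, from 0.0075 to 0.19 for LAT and from 0.0092 to 0.094 for CD247. On that scale PRKCQ ran from -0.17 to -0.11. The causes were not tested.

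Libraries with the same number came from different animals. Deviations from the group mean correlated within these number pairs at -0.284, 0.135 and -0.00728. Deviations within a label sum to 0 for each gene, so these correlations depend on each other. They cannot decide whether the numbers pair the samples. Only WT replicate 2 correlated best with its own number. With the replicate number as a block, 2 genes passed an adjusted p of 0.05 and 384 an unadjusted one, and 0 members passed either.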
